A study of Mus musculus with 6 samples.

Results

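The IL6 cytokine family was described here through 9 mouse genes: the ligand genes Il6, Lif and Clcf1, the receptor genes Il6ra, Il6st, Lifr and Osmr, the transcription factor gene Stat3 and the feedback inhibitor gene Socs3. They were taken for their place in the pathway, were found by symbol, and are 9 genes among the 39179 gene rows of each deposited file. Of these, 8 had enough reads to be among the 14365 genes tested, and Il6 did not. The libraries came from 3 Myc/NrasG12V and 3 Myc/Akt1 liver tumour samples of wild-type C57BL/6 mice. In both groups transposons carrying Myc had been brought into hepatocytes by hydrodynamic injection, in which a large volume is pushed quickly into the tail vein. The Myc/NrasG12V tumours received NrasG12V, a constitutively active Ras GTPase, as the second oncogene, and the Myc/Akt1 tumours received the kinase gene Akt1. RNA was taken from tumour samples with no sorting of cells stated, poly(A) RNA was captured, and stranded libraries were read from one end. The design implies 1 comparison, Myc/NrasG12V against Myc/Akt1, with no normal liver among the samples analysed here.

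Cytokines of the IL6 family bind a receptor specific to the ligand and signal through the shared chain GP130, the product of Il6st, alone or paired with the LIF receptor or the oncostatin M receptor. The chains activate JAK kinases, which phosphorylate STAT3, and STAT3 enters the nucleus and switches on target genes. Among these is Socs3, whose protein binds GP130 and JAK and shuts the signal off. In liver the pathway is known as the main driver of the acute phase response, in which hepatocytes change the plasma proteins they secrete, and for its part in regeneration. Activity of STAT3 lies in its phosphorylation, which mRNA levels do not measure.

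The libraries held 17881282 to 21780251 reads in Myc/NrasG12V and 22005319 to 27865094 in Myc/Akt1, and 3 reads, the most that a count of 0 leaves possible, were worth 0.108 to 0.168 CPM (reads of a gene relative to the library total). Floors cover counting error only. Whether the samples of 1 group are from different mice is not stated in the labels, so the spread behind the p-values may be technical. The limma p-values also draw on the spread of other genes of similar level, and not on that of the gene alone. Counting endogenous and any delivered transcripts together, Nras stood at 171 ± 25.0 CPM in Myc/NrasG12V and 56.0 ± 4.51 CPM in Myc/Akt1, and Akt1 at 65.1 ± 19.1 CPM in Myc/NrasG12V and 279.9 ± 33.8 CPM in Myc/Akt1 (SD, n = 3 each), in the direction of the labels. A gene was called changed at an adjusted p under 0.05 in limma on log2(CPM + 1). On this scale 39.5% of all tested genes were called, 1437 higher and 4240 lower in Myc/NrasG12V. With TMM factors, which correct for composition, 2331 were higher and 2565 lower. The median log2 difference of all genes was -0.26 in CPM and 0.00 with TMM factors, so each difference below is to be read against that shift. Principal component 2 (11.6% of the variance) separated Myc/NrasG12V replicate 3 from the other two.

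Myc/NrasG12V tumours had far more mRNA of the feedback inhibitor Socs3, of the oncostatin M receptor Osmr and of the cytokine Lif than Myc/Akt1 tumours. Socs3 was 6.98-fold, Osmr 4.99-fold and Lif 3.47-fold higher. Of the 8 tested members, 3 were called higher and 0 lower in Myc/NrasG12V, where 10.0% of all tested genes were called higher and 29.5% lower. The other 5 did not pass. The median log2 difference over the 8 was 0.79, where that of all tested genes was -0.26. For 4 members, the 3 called ones and Stat3, every Myc/NrasG12V library lay above every Myc/Akt1 library, as for 14.8% of all tested genes (52.7% did not overlap in either direction, 38.0% being lower in Myc/NrasG12V). In bulk tissue fewer cells of a type and less RNA per cell cannot be told apart.

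**Figure D1:**
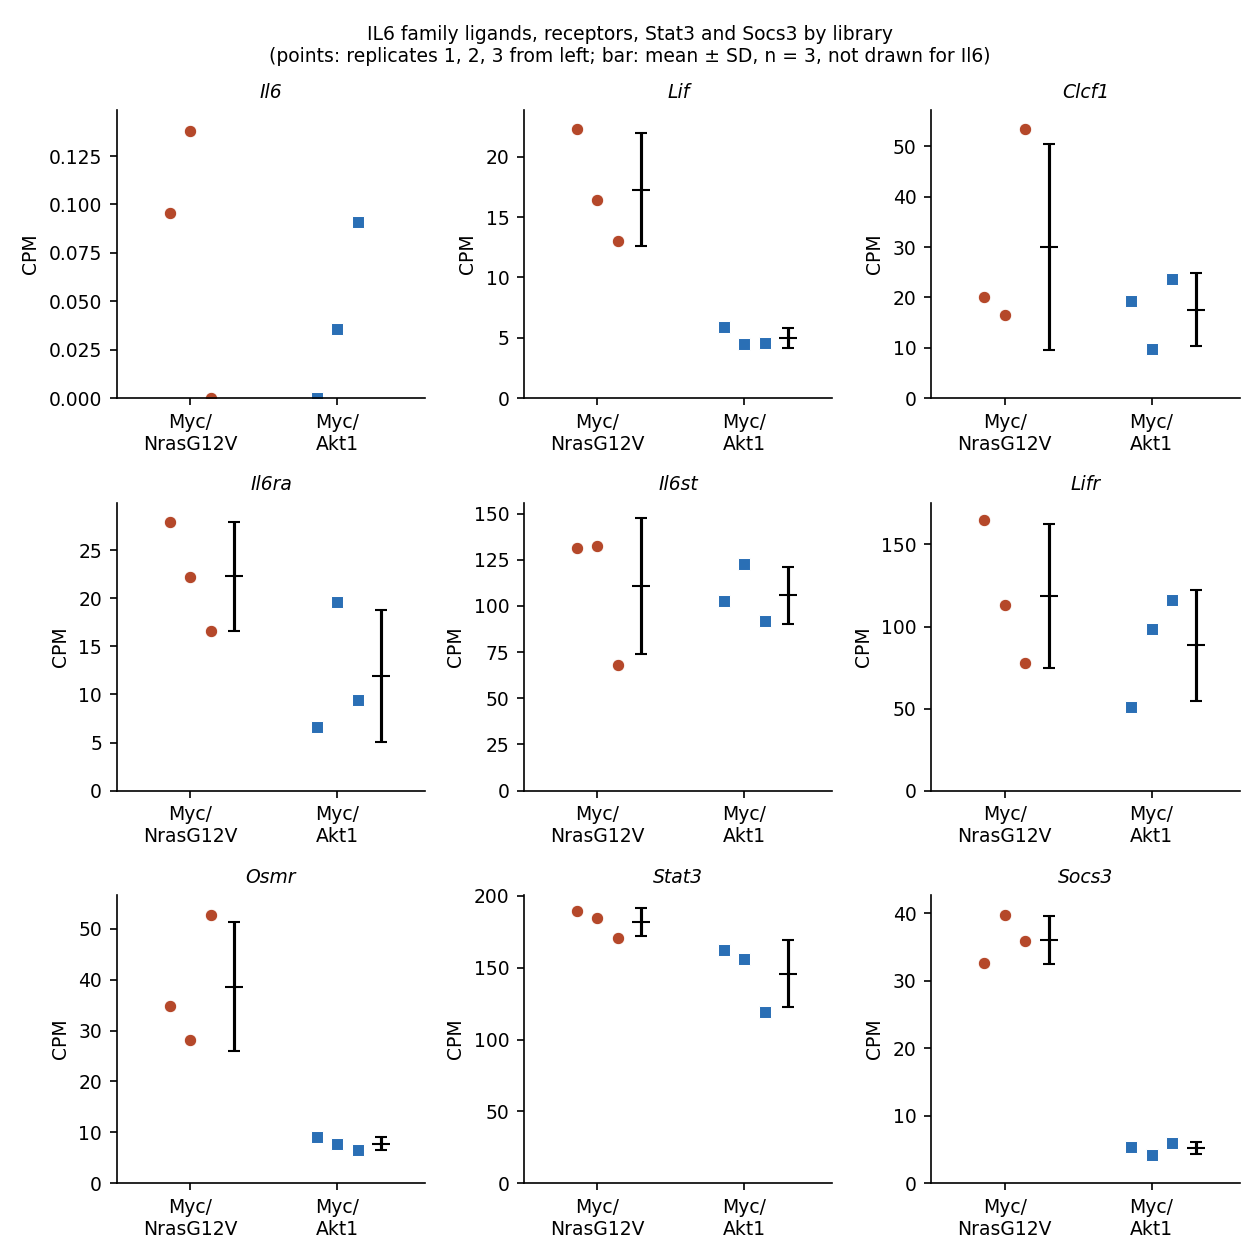
CPM of the 9 genes in each library, on linear axes that start at 0, with Myc/NrasG12V (circles) left of Myc/Akt1 (squares); bars give the mean and SD of 3 libraries. The Socs3 points sit between 32.6 and 39.7 CPM in Myc/NrasG12V and between 4.20 and 5.91 CPM in Myc/Akt1, while the points of Il6st and Lifr overlap.

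Among the ligands Lif was clearly transcribed and differed, Clcf1 was transcribed and did not pass, and Il6 was near the limit of detection. Il6 (ENSMUSG00000025746, chromosome 5, 30013114 to 30019981, plus strand, GRCm38), the founding cytokine of the family, had 2, 3 and 0 reads in Myc/NrasG12V replicates 1, 2 and 3 and 0, 1 and 2 reads in Myc/Akt1 replicates 1, 2 and 3. No library exceeded the floor of 3 reads, so no fold was formed and a difference was not detectable at this depth.

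Lif (ENSMUSG00000034394, chromosome 11, 4257557 to 4272514, plus strand) encodes leukaemia inhibitory factor, which signals through LIFR paired with GP130. It stood at 22.3, 16.4 and 13.0 CPM in the Myc/NrasG12V libraries, from 467, 358 and 233 reads, and at 5.90, 4.49 and 4.54 CPM in the Myc/Akt1 libraries, from 139, 125 and 100 reads. Every Myc/NrasG12V library was above every Myc/Akt1 library. The means were 17.3 ± 4.69 CPM in Myc/NrasG12V and 4.98 ± 0.798 CPM in Myc/Akt1 (SD, n = 3 each), a log2 difference of 1.59 with a standard error of 0.25 (limma adjusted p = 0.00172). Leaving out any 1 library kept the fold between 2.96 and 3.89. The promoter window of Lif is printed because it lies at a gene that rose. It covers 250 bases before and 50 bases after the start annotated by RefSeq on GRCm38.p6, chr11:4257318-4257617 on the plus strand, and the capitals mark TGACTCA, a match to the AP-1 letters TGANTCA, bound by FOS and JUN proteins, from -228 to -222.
Lif: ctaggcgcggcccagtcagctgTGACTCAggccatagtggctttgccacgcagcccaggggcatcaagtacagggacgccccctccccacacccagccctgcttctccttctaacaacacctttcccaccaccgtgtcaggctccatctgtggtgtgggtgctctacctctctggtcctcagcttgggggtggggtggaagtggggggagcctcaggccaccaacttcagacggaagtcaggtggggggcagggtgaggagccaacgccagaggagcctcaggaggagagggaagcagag
Of 32851 mouse promoter windows of this length, 7.81% hold these AP-1 letters on either strand. A match is a description of letters and shows no binding.

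Clcf1 (ENSMUSG00000040663, chromosome 19, 4214238 to 4223490, plus strand) encodes cardiotrophin-like cytokine factor 1, which signals through the CNTF receptor with LIFR and GP130. It stood at 20.0, 16.6 and 53.5 CPM in Myc/NrasG12V and at 19.3, 9.73 and 23.8 CPM in Myc/Akt1. Only Myc/NrasG12V replicate 3 was above the range of the other libraries, and the groups overlapped. Its log2 difference of 0.63 (95% interval -0.41 to 1.67) did not pass (limma adjusted p = 0.304). The ratio of means was 1.70 with all libraries and 1.04 without Myc/NrasG12V replicate 3. A second row with the symbol Clcf1, ENSMUSG00000097629, had 0 reads in all 6 libraries.

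Of the 4 receptor genes, Osmr was called higher, Il6ra was higher in the means without passing, and Il6st and Lifr overlapped between the groups. Osmr (ENSMUSG00000022146, chromosome 15, 6813577 to 6874969, minus strand) encodes the receptor chain that joins GP130 to bind oncostatin M. It stood at 34.9, 28.2 and 52.8 CPM in Myc/NrasG12V, from 731, 615 and 944 reads. In Myc/Akt1 it stood at 9.04, 7.64 and 6.54 CPM, from 213, 213 and 144 reads. The lowest Myc/NrasG12V library was thus well above the highest Myc/Akt1 library, and replicate 3 was the highest. The means were 38.6 ± 12.7 CPM in Myc/NrasG12V and 7.74 ± 1.25 CPM in Myc/Akt1 (SD, n = 3 each), a log2 difference of 2.14 with a standard error of 0.26 (limma adjusted p = 5.08e-04). Without any 1 library the fold stayed between 4.08 and 5.66. The Osmr promoter window, chr15:6874264-6874563 on the minus strand (RefSeq, GRCm38.p6), is shown beside that of Lif because it too holds the AP-1 letters, as TGATTCA from +4 to +10 of the RefSeq start. That start lies 656 bases downstream of the start of the principal transcript in GENCODE M21.
Osmr: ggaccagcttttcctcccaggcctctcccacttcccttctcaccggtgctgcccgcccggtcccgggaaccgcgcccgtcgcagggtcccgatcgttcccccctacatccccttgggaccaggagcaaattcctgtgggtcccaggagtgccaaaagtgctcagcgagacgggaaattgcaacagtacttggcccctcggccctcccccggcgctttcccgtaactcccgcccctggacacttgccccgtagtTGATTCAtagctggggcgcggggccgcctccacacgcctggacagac
Osmr and Lifr are neighbours on chromosome 15, on opposite strands and 215.6 kb apart, with 0 other coding genes between them.

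Lifr (ENSMUSG00000054263, chromosome 15, 7090614 to 7197489, plus strand), the receptor chain for LIF, stood at 165, 113 and 77.9 CPM in Myc/NrasG12V and at 50.8, 98.3 and 116 CPM in Myc/Akt1. The groups overlapped widely, and the log2 difference of 0.44 had a 95% interval from -0.37 to 1.24 (limma adjusted p = 0.357). Il6st (ENSMUSG00000021756, chromosome 13, 112464070 to 112510086, plus strand), which encodes GP130, stood at 131, 132.6 and 68.1 CPM in Myc/NrasG12V and at 102, 122.6 and 91.9 CPM in Myc/Akt1. Its group means were 111 ± 36.9 CPM in Myc/NrasG12V and 106 ± 15.6 CPM in Myc/Akt1 (SD, n = 3 each). Its log2 difference of 0.01 had 95% bounds at -0.60 and 0.63 (limma adjusted p = 0.973), so a difference of up to about that size in either direction is within the error.

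Il6ra (ENSMUSG00000027947, chromosome 3, 89864059 to 89913196, minus strand), the IL6-binding receptor chain, stood at 28.0, 22.2 and 16.6 CPM in Myc/NrasG12V and at 6.66, 19.6 and 9.41 CPM in Myc/Akt1. Myc/Akt1 replicate 2 lay among the Myc/NrasG12V libraries and the other two Myc/Akt1 libraries below them. The means were 22.3 ± 5.69 CPM in Myc/NrasG12V and 11.9 ± 6.83 CPM in Myc/Akt1 (SD, n = 3 each), 1.87-fold apart. Its log2 difference of 0.95 (95% interval 0.11 to 1.79) did not pass (limma adjusted p = 0.0696). It passed with TMM factors (log2 difference 1.24, adjusted p = 0.0378), with edgeR on the recovered reads (adjusted p = 0.0496), and without Myc/NrasG12V replicate 3 (adjusted p = 0.0455) or Myc/Akt1 replicate 2 (adjusted p = 0.0154).

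Stat3 mRNA was abundant in both groups, whereas Socs3 mRNA was low in Myc/Akt1 and several times higher in Myc/NrasG12V. Stat3 (ENSMUSG00000004040, chromosome 11, 100885098 to 100939540, minus strand) encodes the transcription factor on which the receptors converge. It stood at 189.7, 184.6 and 170.9 CPM in Myc/NrasG12V and at 162, 156 and 119 CPM in Myc/Akt1. No Myc/Akt1 library reached the Myc/NrasG12V range, but the gap between the lowest Myc/NrasG12V and the highest Myc/Akt1 library was small. The means were 182 ± 9.73 CPM in Myc/NrasG12V and 146 ± 23.3 CPM in Myc/Akt1 (SD, n = 3 each), 1.25-fold apart. The log2 difference of 0.33 had a 95% interval from -0.07 to 0.72 and did not pass in CPM (limma adjusted p = 0.166). With TMM factors it was 0.64 and passed (adjusted p = 0.0261), and it passed with edgeR (adjusted p = 0.0365) and DESeq2 (adjusted p = 0.0122) on the recovered reads. Stat3 and its neighbour Stat5a overlap by 72 bases on opposite strands, and the strand setting of the counting is not given in the sources used here.

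Socs3 (ENSMUSG00000053113, chromosome 11, 117966079 to 117970047, minus strand) had the largest difference of the 8 tested members. It stood at 32.6, 39.7 and 35.8 CPM in Myc/NrasG12V, from 683, 865 and 641 reads. In Myc/Akt1 it stood at 5.39, 4.20 and 5.91 CPM, from 127, 117 and 130 reads. All Myc/NrasG12V libraries lay close together and far above all Myc/Akt1 libraries. The means were 36.1 ± 3.56 CPM in Myc/NrasG12V and 5.16 ± 0.876 CPM in Myc/Akt1 (SD, n = 3 each), a log2 difference of 2.59 with a standard error of 0.21 (limma adjusted p = 9.52e-05). Without any 1 library the fold stayed between 6.38 and 7.52. The Socs3 promoter window, chr11:117969317-117969616 on the minus strand (RefSeq, GRCm38.p6), is shown because Socs3 is a textbook STAT3 target. Its capitals mark TTCTTAGAA from -154 to -146, a match to the STAT letters TTCNNNGAA.
Socs3: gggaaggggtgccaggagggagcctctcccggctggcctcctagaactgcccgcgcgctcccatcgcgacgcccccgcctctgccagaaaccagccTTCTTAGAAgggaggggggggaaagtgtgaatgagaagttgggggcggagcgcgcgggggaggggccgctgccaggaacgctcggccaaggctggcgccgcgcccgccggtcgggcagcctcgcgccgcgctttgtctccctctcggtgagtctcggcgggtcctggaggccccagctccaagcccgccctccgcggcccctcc
The STAT letters are in 8.30% of the 32851 windows. Windows were at hand for 8 of the 9 members (RefSeq), and of these only that of Socs3 held the STAT letters, while the AP-1 letters were in those of Lif, Osmr and Il6. The STAT and AP-1 letters read the same on both strands, and no matches overlapped. The ETS letters CCGGAA, bound by ETS factors, were in the window of Il6st, on both strands, and are in 14.9% of windows. The windows of Il6ra, Lifr and Stat3 held none of these letters. The RefSeq start used for Socs3, from which the positions above are counted, lies 180 bases upstream of the start of the principal transcript in GENCODE M21. The window therefore ends before that second start, and the bases next to it were not searched.

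**Figure D2:**
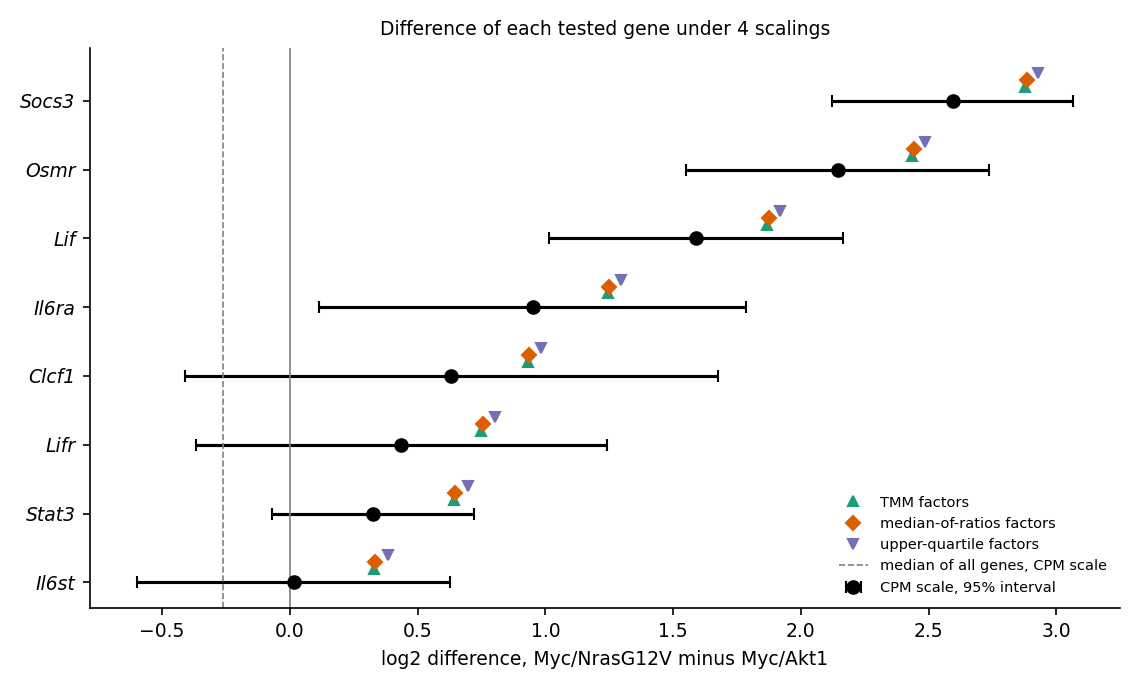
The log2 difference of each tested member, Myc/NrasG12V minus Myc/Akt1, in CPM with its 95% interval (black points and lines) and with 3 scaling factors (coloured symbols), with the median of all genes as a dashed line at -0.26. The intervals of Socs3, Osmr, Lif and Il6ra exclude 0, and the scaling factors move every member to the right.

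Read against the median of all tested genes, the log2 differences in CPM were 2.85 for Socs3, 2.40 for Osmr, 1.85 for Lif, 1.21 for Il6ra, 0.89 for Clcf1, 0.70 for Lifr, 0.59 for Stat3 and 0.28 for Il6st. With TMM, median-of-ratios or upper-quartile factors 5 members were called higher and 0 lower, Il6ra and Stat3 being added. With these factors, in this order, 2331, 2366 and 2544 of all 14365 tested genes were higher and 2565, 2515 and 2343 lower. Replicate 3 was the lowest of the Myc/NrasG12V libraries for Lif, Il6ra, Il6st, Lifr and Stat3 and the highest for Osmr and Clcf1. Socs3 varied little within its groups, with a coefficient of variation of 9.86% in Myc/NrasG12V and 17.0% in Myc/Akt1, and Stat3 had 5.35% in Myc/NrasG12V and 16.0% in Myc/Akt1.

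Levels of the members were compared with each other as CPM per kb of exon. The length joined all annotated exons of a gene, from 2.43 kb for Il6 to 12.1 kb for Osmr. It can exceed the length of 1 mRNA, and the order below depends on it. Stat3 had the highest level in both groups. In Myc/NrasG12V the order of mean levels was Stat3 (19.1 CPM per kb), Socs3 (12.5 CPM per kb), Lifr (11.0 CPM per kb), Il6st (9.98 CPM per kb), Clcf1 (7.89 CPM per kb), Lif (3.97 CPM per kb), Osmr (3.19 CPM per kb), Il6ra (2.58 CPM per kb) and Il6 (0.0320 CPM per kb). Stat3 was above every other member in each of these libraries. From Socs3 down to Il6ra, each member's range overlapped that of the next in the order. In Myc/Akt1 the order of mean levels was Stat3 (15.3 CPM per kb), Il6st (9.52 CPM per kb), Lifr (8.21 CPM per kb), Clcf1 (4.63 CPM per kb), Socs3 (1.79 CPM per kb), Il6ra (1.38 CPM per kb), Lif (1.14 CPM per kb), Osmr (0.639 CPM per kb) and Il6 (0.0174 CPM per kb). Here Stat3 again lay above all others, the ranges of Il6st, Lifr and Clcf1 overlapped between neighbours, and so did those of Socs3, Il6ra and Lif, while Osmr lay below Lif without overlap. Socs3 was thus 2nd in mean level in Myc/NrasG12V and 5th in Myc/Akt1.

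Ratios of reads within a library do not depend on the library total, and 4 were formed. Socs3 reads were 17.2%, 21.5% and 21.0% of Stat3 reads in Myc/NrasG12V, against 3.32%, 2.69% and 4.96% in Myc/Akt1. The means were 19.9 ± 2.36% in Myc/NrasG12V and 3.66 ± 1.17% in Myc/Akt1 (SD, n = 3 each), a log2 difference of 2.48 without overlap. Osmr reads were 26.6%, 21.3% and 77.5% of Il6st reads in Myc/NrasG12V, against 8.82%, 6.24% and 7.12% in Myc/Akt1. Replicate 3 was far above the other two, and the log2 difference was 2.27 with it and 1.70 without it, with no overlap in either case. Il6ra reads were 21.3%, 16.8% and 24.4% of Il6st reads in Myc/NrasG12V, against 6.50%, 16.0% and 10.2% in Myc/Akt1, a log2 difference of 1.01 with a narrow gap between the groups. Lifr reads were 125%, 85.5% and 114% of Il6st reads in Myc/NrasG12V, against 49.6%, 80.2% and 126.6% in Myc/Akt1, and the groups overlapped. With 3 against 3 libraries a two-sided exact permutation test cannot give a p below 0.1, which it gave for the first 3 ratios (Benjamini-Hochberg adjusted over the 4 ratios, 0.133), and it gave 0.5 for Lifr to Il6st.

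**Figure D3:**
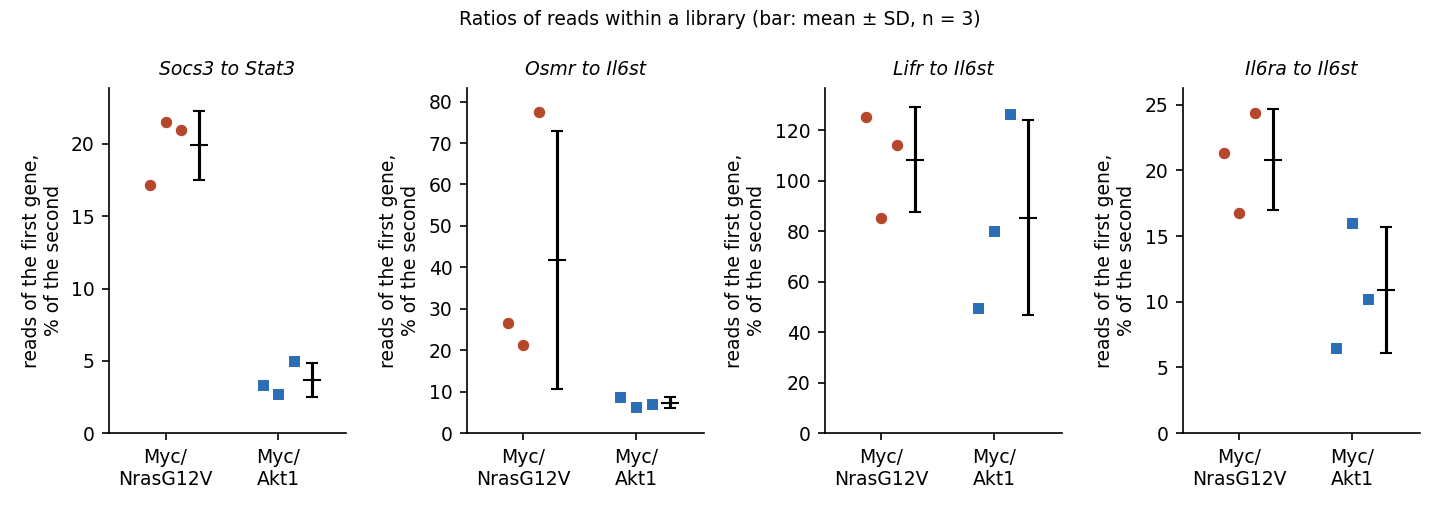
Reads of 1 member as a percentage of the reads of another in the same library, with Myc/NrasG12V (circles) left of Myc/Akt1 (squares) and bars for the mean and SD of 3 libraries. Socs3 to Stat3 averages 19.9% in Myc/NrasG12V and 3.66% in Myc/Akt1, and Lifr to Il6st overlaps between the groups.

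For 4 members the tested genes with the most similar pattern over the 6 libraries were sought among 10041 candidates, by the root mean square difference of log2(CPM + 1) centred on each gene's mean. The nearest to Socs3 was Timp1, an inhibitor of matrix metalloproteinases, at 0.125, followed by Dusp6, a phosphatase that inactivates ERK, at 0.192 and Kctd12 at 0.194. The nearest to Osmr were Maml3, a Notch coactivator gene, at 0.119, Plaur, the urokinase receptor gene, at 0.152 and Tspan33 at 0.160. The nearest to Il6ra were Colec10, a collectin gene, at 0.114, Notch1 at 0.174 and Lpin1 at 0.235. The nearest to Stat3 were Abca1, a cholesterol exporter gene, at 0.0554, Sdcbp at 0.0715 and Fam168a at 0.0746. The 6 libraries form 2 groups, so genes with a similar group difference are near each other by construction.

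The other genes of the pathway were followed in 6 lists of 90 genes, of which 79 were tested. Of these 24 were higher, 10 lower and 45 not past the test, and the median log2 difference was 0.09. Over all tested genes 10.0% were called higher and 29.5% lower, 39.5% in either direction, and the median was -0.26. Each list count below is to be read beside these shares. Of the 9 other ligand genes Osm and Ctf1 were tested, while the others, Il11 and Cntf among them, had too few reads. Osm, which encodes oncostatin M, the ligand of OSMR, was called higher at a low level. It stood at 1.29, 1.15 and 1.06 CPM in Myc/NrasG12V and at 0.424, 0.144 and 0.136 CPM in Myc/Akt1, a log2 difference of 0.82 on the log2(CPM + 1) scale (limma adjusted p = 0.00692). Every Myc/Akt1 value was under the 0.457 CPM filter limit. Osm was therefore tested only through the Myc/NrasG12V libraries, where it is high. Its fold was 4.97, and 8.34 without Myc/Akt1 replicate 1. Osm lies 16.5 kb from Lif on the same strand, with 0 coding genes between them. Ctf1, cardiotrophin, had a log2 difference of -0.63 (limma adjusted p = 0.0920).

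Of 7 tested genes among the other receptors and the proteases that shed receptors from the cell surface, 1 was higher and 2 were lower. Il11ra1, the IL11 receptor gene, stood at 23.6, 22.8 and 16.5 CPM in Myc/NrasG12V and at 11.2, 13.7 and 14.2 CPM in Myc/Akt1 (limma adjusted p = 0.0450). Its call ended with no filter (adjusted p = 0.0639), with the replicate number as a block (adjusted p = 0.0686), and without any 1 library other than Myc/NrasG12V replicate 3 (adjusted p up to 0.160). Adam17, a protease known to cleave IL6R, was 1.80-fold lower (limma adjusted p = 0.0159), and Adam10, a related sheddase gene, was 1.62-fold lower (limma adjusted p = 0.0211). Both calls rested on the CPM scale: they ended with each of the 3 scaling factors, edgeR and DESeq2, and with TMM factors the adjusted p was 0.0951 for Adam17 and 0.135 for Adam10. They also ended without Myc/NrasG12V replicate 1 (0.0543 and 0.0728), Myc/Akt1 replicate 1 (0.0684 and 0.0877) or Myc/Akt1 replicate 2 (0.0698 and 0.0851), and that of Adam10 without Myc/NrasG12V replicate 2 (0.0667). Il12rb2, a receptor chain for IL12, had a log2 difference of -0.58 (limma adjusted p = 0.0717).

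Of the 10 JAK kinase and other STAT genes 0 were higher and 1 was lower. The lower one, Stat5a, stood at 12.5, 12.7 and 10.6 CPM in Myc/NrasG12V and at 26.4, 21.5 and 19.8 CPM in Myc/Akt1 (limma adjusted p = 0.00987). Its call ended with each of the 3 scaling factors (adjusted p = 0.0620, 0.0670 and 0.0782), with edgeR (adjusted p = 0.0575) and without Myc/Akt1 replicate 1 (adjusted p = 0.0556). Stat2, a mediator of interferon signals, had a log2 difference of -0.55 (limma adjusted p = 0.0551). The JAK kinase gene Tyk2 had a log2 difference of 0.39 in CPM (limma adjusted p = 0.171) and 0.69 with TMM factors, where it passed (adjusted p = 0.0230).

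Of 14 tested genes of SOCS, PIAS and phosphatase regulators, which restrain the pathway, 1 was higher and 1 lower. Socs5, a relative of Socs3, stood at 21.8, 15.6 and 29.0 CPM in Myc/NrasG12V and at 3.27, 6.32 and 5.63 CPM in Myc/Akt1. Its groups were separate, and it was 4.36-fold higher (limma adjusted p = 0.00163). Socs4 was 1.67-fold lower (limma adjusted p = 0.0155), a call that ended with each of the 3 scaling factors, edgeR and DESeq2 (adjusted p = 0.0806 with TMM factors) and when Myc/NrasG12V replicate 1 (0.0561), Myc/NrasG12V replicate 2 (0.0579), Myc/Akt1 replicate 1 (0.0693) or Myc/Akt1 replicate 2 (0.0614) was left out. Ptpn6, the phosphatase SHP1, had a log2 difference of -0.54 (limma adjusted p = 0.0620) and Pias1, of the inhibitors of activated STAT proteins, one of 0.38 in CPM (limma adjusted p = 0.132) and 0.68 with TMM factors (adjusted p = 0.0196).

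Of 20 genes known to respond to STAT3, 9 were higher and 2 lower, and the median log2 difference was 0.57. The shares over all tested genes were 10.0% higher and 29.5% lower. With each of the 3 scaling factors 13 of the list were higher and 2 lower. Of all 14365 tested genes, 2331 to 2544 were then higher and 2343 to 2565 lower. Il1rn, the IL1 receptor antagonist gene, stood at 126, 96.0 and 56.1 CPM in Myc/NrasG12V and at 3.86, 4.77 and 5.41 CPM in Myc/Akt1, 19.8-fold higher (limma adjusted p = 7.13e-05). Timp1 was 10.8-fold higher, Bcl2l1, which encodes the survival protein BCL-XL, 4.94-fold, and Zfp36, which encodes an mRNA-destabilising protein, 4.18-fold (limma adjusted p = 1.35e-04, 2.31e-04 and 5.34e-04). The other 5 higher genes were Fos, Junb, Cebpd, Ccnd1 and Klf6. Fos was 12.9-fold higher, and 8.15-fold without Myc/NrasG12V replicate 2. Junb was 11.0-fold higher, and 7.01-fold without Myc/NrasG12V replicate 3 or 23.3-fold without Myc/Akt1 replicate 3. Cebpd was 3.11-fold higher, and 5.07-fold without Myc/Akt1 replicate 3. The call of Cebpd ended without Myc/Akt1 replicate 1 or 2 (adjusted p = 0.0564 and 0.0539). That of Ccnd1 ended on leaving out replicate 1 or 2 of Myc/NrasG12V or replicate 1 of Myc/Akt1 (adjusted p = 0.0744, 0.0719 and 0.0800), and that of Klf6 on leaving out replicate 2 or 3 of either group (adjusted p = 0.0951, 0.0813, 0.110 and 0.115). Klf6 also lost its call with the replicate number as a block (adjusted p = 0.0699) and with no filter (adjusted p = 0.0688). Bcl3, a coregulator of NF-kB, was 2.80-fold lower, and Hif1a, the hypoxia-inducible factor gene, 2.14-fold lower (limma adjusted p = 0.00226 and 0.00229). Genes of this list such as Fos and Junb are also known targets of ERK, the kinase downstream of Nras.

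Acute phase genes, the classical liver readout of IL6, went both ways: of 26, 12 were higher, 4 lower and 10 not past the test, with a median log2 difference of 0.06. Among all tested genes 10.0% were called higher and 29.5% lower. The list counts were 12 and 4 with each of the 3 scaling factors too, and 9 and 4 with no filter. They were 11 and 6 without Myc/NrasG12V replicate 2, and 14 and 4 without Myc/NrasG12V replicate 3. A2m, a protease inhibitor of plasma, stood at 398, 451 and 323 CPM in Myc/NrasG12V and at 0.552, 1.87 and 0.50 CPM in Myc/Akt1, 401-fold higher, or 743-fold without Myc/Akt1 replicate 2 (limma adjusted p = 3.46e-06). Serpina3n, another protease inhibitor, was 12.8-fold and Cd14, a receptor for bacterial lipopolysaccharide, 7.76-fold higher (limma adjusted p = 2.99e-05 and 1.49e-04). The 3 fibrinogen chain genes, named after their values were seen, were 3.26-fold (Fga), 4.20-fold (Fgb) and 3.06-fold (Fgg) higher. The calls of Fga and Fgg ended with no filter on low values (adjusted p = 0.0707 and 0.0505). The 4 lower genes were Orm2, an orosomucoid, and the serum amyloid A genes Saa1, Saa2 and Saa3. Orm2 stood at 18.4, 20.1 and 9.95 CPM in Myc/NrasG12V and at 135, 134 and 122 CPM in Myc/Akt1 (limma adjusted p = 1.25e-04). Saa1 was 4.45-fold lower, Saa3 4.65-fold, and Saa2 8.92-fold, or 14.7-fold without Myc/NrasG12V replicate 2. Reads of Orm and Saa genes can be split wrongly between their near-identical relatives, which makes these values uncertain. Haptoglobin (Hp), also named after its values were seen, stood at 5281, 6798 and 1937 CPM in Myc/NrasG12V and between 5252 and 5627 CPM in Myc/Akt1, with replicate 3 low (limma adjusted p = 0.545).

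**Figure D4:**
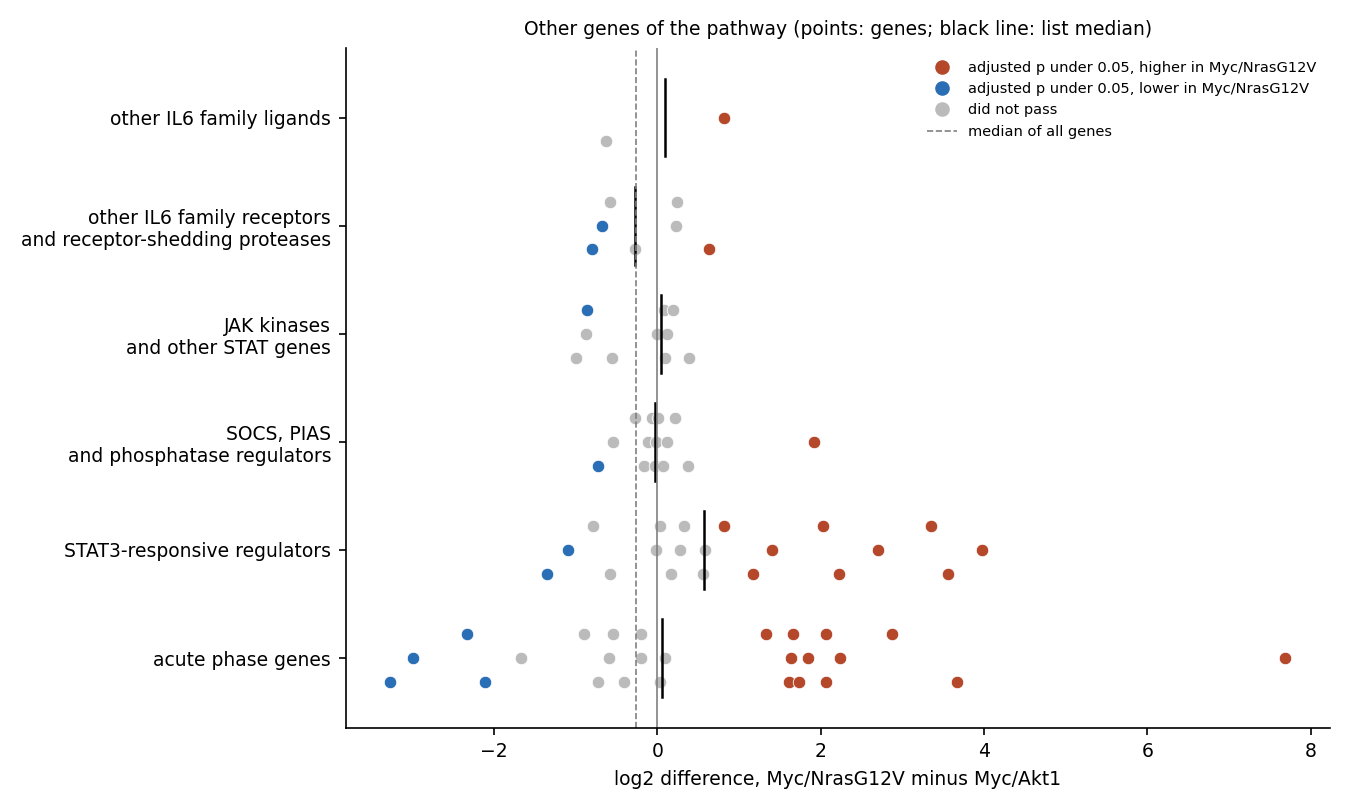
The log2 difference of each tested gene of the 6 pathway lists, Myc/NrasG12V minus Myc/Akt1, coloured by whether it was called higher, called lower or did not pass; black lines are list medians and the dashed line is the median of all genes at -0.26. The STAT3-responsive list has its median at 0.57, and the acute phase list has called genes on both sides.

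Summed markers of neutrophils, erythroid cells and T and NK cells were also higher in Myc/NrasG12V. Marker counts below are to be read beside all tested genes, of which 10.0% were called higher and 29.5% lower. Without overlap, 14.8% of all tested genes lay higher and 38.0% lower in Myc/NrasG12V. The summed level of 11 neutrophil markers was 34.2, 75.4 and 208 CPM in Myc/NrasG12V and 4.04 to 4.96 CPM in Myc/Akt1, and 9 of 10 tested markers were called higher. In the same Myc/NrasG12V libraries, in the same order, Socs3 was at 32.6, 39.7 and 35.8 CPM, Osmr at 34.9, 28.2 and 52.8 CPM and Lif at 22.3, 16.4 and 13.0 CPM. Summed erythroid markers were at 300 to 1869 CPM in Myc/NrasG12V and 49.8 to 103 CPM in Myc/Akt1 (6 of 8 higher). In Myc/NrasG12V most of that sum was globin, and Alas2 and Klf1 overlapped between the groups. T and NK cell markers summed to 11.8 to 32.7 CPM in Myc/NrasG12V and 5.39 to 8.29 CPM in Myc/Akt1 (3 of 7 tested higher). Within this list Cd4 lay lower in Myc/NrasG12V without overlap and did not pass (limma adjusted p = 0.0700). Ncr1, with too few reads to be tested, also lay lower, and Gzma overlapped. Macrophage and Kupffer cell markers summed to 296 to 472 CPM in Myc/NrasG12V and 192 to 247 CPM in Myc/Akt1 (3 of 10 higher). Stellate cell and fibroblast markers summed to 536 to 621 CPM in Myc/NrasG12V and 382 to 615 CPM in Myc/Akt1 (3 of 11 higher), and cholangiocyte markers to 424 to 968 CPM in Myc/NrasG12V and 127 to 262 CPM in Myc/Akt1. The cholangiocyte sum is nearly all Spp1 (osteopontin), at 951, 517 and 409 CPM in Myc/NrasG12V and 250, 115 and 250 CPM in Myc/Akt1, and of the 5 markers only Spp1 was called. Endothelial markers overlapped, at 158 to 246 CPM in Myc/NrasG12V and 186 to 226 CPM in Myc/Akt1 (3 higher and 1 lower of 8), and so did B cell markers, at 1.79 to 4.44 CPM in Myc/NrasG12V and 2.00 to 2.80 CPM in Myc/Akt1. The 8 hepatocyte markers, which check the labelled tissue, summed to 113736 to 151340 CPM in Myc/NrasG12V and 43782 to 55220 CPM in Myc/Akt1. Most of that sum is albumin (Alb), at 90716 to 123707 CPM in Myc/NrasG12V and 29894 to 38466 CPM in Myc/Akt1. Alb was 3.30-fold higher without overlap and did not pass (limma adjusted p = 0.184, standard error of the log2 difference 0.95). That standard error also draws on other genes of similar level. The coefficient of variation of Alb itself was 15.9% in Myc/NrasG12V and 13.2% in Myc/Akt1. Of the 8 only Apoa1 was called, 5.99-fold higher, while Ttr and Asgr1 lay lower in Myc/NrasG12V without overlap and did not pass (limma adjusted p = 0.0785 and 0.0976), and Hnf4a had a ratio of means of 1.04. None of the listed markers was at 0 in all 6 libraries. The part of these cell types in the differences of Socs3, Osmr, Lif and Osm was not tested.

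**Figure D5:**
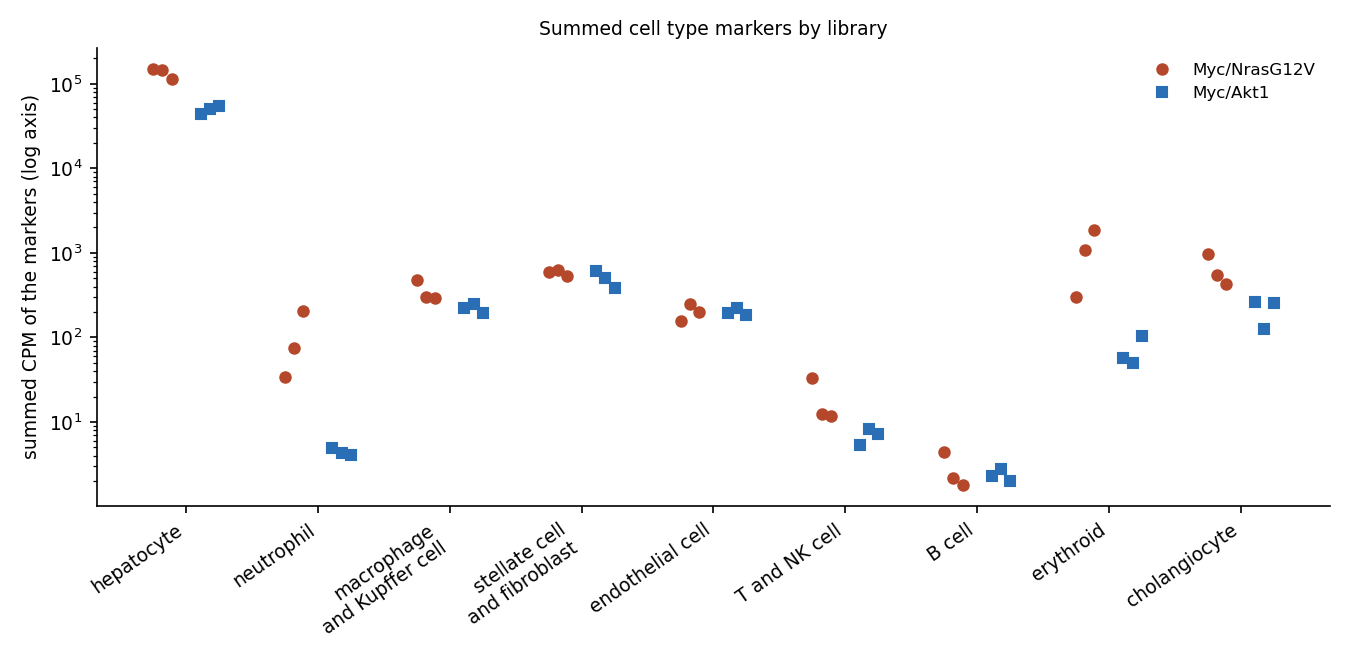
Summed CPM of the markers of 9 cell types in each library, on a log axis, with Myc/NrasG12V (circles) left of Myc/Akt1 (squares). Neutrophil markers lie at 34.2 to 208 CPM in Myc/NrasG12V and at 4.04 to 4.96 CPM in Myc/Akt1, and endothelial markers overlap.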

How the data were processed

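Each file holds 1 CPM value per gene, made by the authors by dividing the reads of a gene by the library total, as seen from the values. Tools named in the submitters' processing notes are STAR (2.6.1c), Subread (1.6.3) and edgeR (3.22.5), with the build GRCm38; annotation release, strand setting and treatment of multi-mapped reads are not given in the sources used here. Divided by the worth of 1 read, 100% of the deposited CPM values came out whole (tolerance 0.01 read), which gave back the reads. Genes passing filterByExpr of edgeR (0.457 CPM in 3 libraries, 15 reads in total) were compared with limma 3.58.1 (R 4.3.3; trend, two-sided) on log2(CPM + 1), with Benjamini-Hochberg adjustment over 14365 genes. Folds are ratios of mean CPM, and log2 differences are limma estimates, which understate changes of genes of low level. edgeR 4.0.16 on the recovered reads called 2381 genes higher and 2512 lower in Myc/NrasG12V, and DESeq2 1.42.0 was a further alternative. Coordinates and exon lengths come from GENCODE M21 (37693 rows matched), and promoter windows from RefSeq. Named list genes are the 4 of lowest adjusted p a list and any in a count of 5 or fewer; an item the rule takes is not reported here. Members and lists were chosen with earlier results of these data known. Alternatives were other scaling factors, filters, pseudocounts and tests, a block for the replicate number and the omission of each library in turn.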

Additional observations from a re-analysis of the deposited data

How the results depend on the processing

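Socs3, Osmr and Lif were called higher in Myc/NrasG12V under all 16 alternatives, with adjusted p up to 8.14e-04, 0.00343 and 0.0102. Members called higher were 3 in CPM and 5 with TMM, median-of-ratios or upper-quartile factors, edgeR or DESeq2; leaving out 1 library gave 3 to 4, and 0 were lower in any alternative. Over all genes the 1437 higher became 2331 with TMM, 2366 with median-of-ratios and 2544 with upper-quartile factors, 2381 with edgeR and 2752 with DESeq2, and the 4240 lower became 2565, 2515, 2343, 2512 and 2791 in that order. The 10 pathway genes called lower became 6 with each of the 3 factors or edgeR and 6 to 13 without 1 library (6 without Myc/Akt1 replicate 1); the 24 higher became 30 with TMM or median-of-ratios factors or edgeR, 32 with upper-quartile factors or DESeq2 and 20 to 26 without 1 library. Steap4, an acute phase gene, was at a log2 difference of -0.54, not past the test, and at 0.59 without Myc/NrasG12V replicate 3, where it passed (adjusted p = 0.0263); over all leave-outs it ran from -1.22 to 0.59. The cause of these shifts was not tested. Same-numbered libraries did not deviate together (correlations -0.08, 0.11 and 0.08 over genes), and not every library correlated best with its own number. With the replicate number as a block 1467 genes were higher and 4063 lower, the members called stayed at 3 and the pathway genes called were 22 higher and 11 lower. Depth limits Il6, which had at most 3 reads in a library.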
